A study of Mus musculus with 4 samples.

Results

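Secreted and enzymatic suppressor molecules of regulatory T (Treg) cells were followed on 4 single-colour arrays, as the 13 probe sets, of 45101 on the array, whose platform gene symbol is Il10, Ebi3, Il12a, Fgl2, Entpd1, Nt5e or Tgfb1. These are 7 of 18194 genes. Adora2a and Areg belong to the same set of 9 genes but had no probe set under that symbol and were not analysed here. Members were matched by gene symbol, with no threshold on their values.

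The samples were mouse CD4+ YFP+ Ly5.2+ T cells. Cells of both groups had been treated with HR-MMPCreGFP, which delivers Cre recombinase, and were isolated 6 weeks after adoptive transfer. In the deleted group (Foxp3delta, 2 arrays) the Foxp3 gene was flanked by loxP sites, so that Cre could excise it, and in the wild-type group (Foxp3+, 2 arrays) the locus was wild type. YFP marks cells that had met Cre, and both groups were selected for it, so exposure to Cre is shared by the controls. No source used here gives the strain, the age or the host of the transfer. Replicates are numbered in the labels without saying whether they came from separate animals, so their spread may be technical.

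Treg cells restrain other immune cells partly through what they release and partly through enzymes on their surface. Interleukin-10 (IL-10), transforming growth factor beta 1 and interleukin-35, a pair of the Ebi3 and Il12a chains, are their suppressive cytokines, and fibrinogen-like protein 2 (Fgl2) is a secreted suppressor. CD39 (Entpd1) trims extracellular ATP and ADP to AMP and CD73 (Nt5e) turns AMP into adenosine, which dampens T cells through the receptor encoded by Adora2a. Areg encodes amphiregulin, a growth factor linked to tissue repair by Treg cells. Foxp3 is the transcription factor that defines the lineage.

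The promoter windows of Fgl2, Ebi3 and Entpd1 are shown because these genes had lower means in deleted cells, as described below. Sequences are from RefSeq (build GRCm38.p6), 250 bases before to 50 bases after the annotated start, on the plus strand and written 5′ to 3′. Of the 9 members 7 had an entry, with 9 windows in all. Il10 and Adora2a had none. Capitals mark matches, on either strand, to any of 5 motifs: TGTTTNC (forkhead), TGANTCA (AP-1), TGACGTCA (cyclic AMP response element), TTCNNNGAA (STAT) and GGAAAA (NFAT).
Fgl2, chr5:21372423-21372722: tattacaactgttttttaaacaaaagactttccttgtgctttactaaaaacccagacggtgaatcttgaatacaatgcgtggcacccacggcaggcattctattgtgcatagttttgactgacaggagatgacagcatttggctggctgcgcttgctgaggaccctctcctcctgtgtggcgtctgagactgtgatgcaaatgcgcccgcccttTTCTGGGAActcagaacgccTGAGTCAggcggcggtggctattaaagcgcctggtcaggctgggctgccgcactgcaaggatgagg
Ebi3, chr17:55952373-55952672: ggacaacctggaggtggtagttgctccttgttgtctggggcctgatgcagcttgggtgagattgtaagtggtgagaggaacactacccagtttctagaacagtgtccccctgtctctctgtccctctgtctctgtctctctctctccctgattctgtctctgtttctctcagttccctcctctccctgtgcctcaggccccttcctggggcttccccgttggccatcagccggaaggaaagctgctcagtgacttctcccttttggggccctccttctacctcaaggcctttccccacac
Entpd1, chr19:40659520-40659819: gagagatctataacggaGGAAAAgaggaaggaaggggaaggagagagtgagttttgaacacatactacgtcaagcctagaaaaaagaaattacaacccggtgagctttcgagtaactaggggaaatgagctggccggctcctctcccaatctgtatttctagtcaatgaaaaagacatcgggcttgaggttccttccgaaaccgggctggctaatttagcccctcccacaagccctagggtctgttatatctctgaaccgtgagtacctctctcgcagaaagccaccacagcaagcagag

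The Fgl2 window held 1 STAT match, TTCTGGGAA, starting 36 bases before the start, and 1 AP-1 match, TGAGTCA, starting 16 bases before it. No letters of the 5 motifs were found in the Ebi3 window. The Entpd1 window shown, at the downstream of 2 annotated starts, held 1 NFAT match starting 233 bases before the start, and the upstream Entpd1 window held none. Outside these, the only match among member windows was the cyclic AMP response element in that of Areg. The forkhead letters were in none of the 9 windows, which do not include the Il10 promoter. Over all 32851 windows of this length, 20.5% held the forkhead letters, 7.81% those of AP-1, 8.30% those of STAT, 23.4% those of NFAT and 1.79% the cyclic AMP response element. The motifs do not overlap one another in the windows shown, and a match describes letters only.

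As a check of the labels, the single Foxp3 probe set read 437.8 and 429.8 in the deleted group and 2694 and 2404 in the wild-type group (GCRMA intensity, the authors' background-corrected and normalized brightness). That leaves 17.0% of the wild-type signal, and no source used here says whether this probe set reads the excised part. Of the T cell markers, 9 of 9 measured genes were above the filter used here, a mean log2 intensity of at least 4 over the 4 arrays. Their summed intensity was between 17492 and 17885 in deleted and between 13051 and 13876 in wild-type arrays. Cd4 itself read 523.7 and 790.1 against 333.1 and 142.4. Of the natural killer markers only Ncr1 was measured, and the gamma-delta markers Tcrg-C1 and Trdc were not measured. The measured CD8, natural killer, mast cell and basophil markers were all below the filter (0 of 3 and 0 of 5 measured genes above it). Of 7 measured B cell markers 2 were above it, with sums over all 7 of 116.6 to 150.9 in deleted and 145.7 to 194.3 in wild-type arrays, and Pax5, Cd79a and Ms4a1 were below it. The 2 above it separated the groups in opposite directions: Cd79b read 16.4 and 30.7 against 95.5 and 89.7 (lower by 2.04 on the log2 scale), and Cd22 read 57.9 and 80.6 against 52.0 and 13.5 (higher by 1.37). Their part in the results was not tested. Of 4 measured erythroid and platelet markers 1 was above it, with sums of 34.6 to 57.6 in deleted arrays and 32.5 in each wild-type array. Myeloid markers were uneven. Of 13 measured, 7 were above the filter, and the sum over all 13 was 3100 to 10264 in deleted against 2484 to 2582 in wild-type arrays, with deleted replicate 1 the highest. In that array Lyz2, the lysozyme gene of myeloid cells, read 828.0 against 79.0 in deleted replicate 2. All 7 genes above the filter had higher means in deleted cells (median difference 1.02). The brightest were S100a8 and S100a9, and S100a8 was higher in both deleted arrays (4400 and 1547 against 878.0 and 1214).

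Il10, Fgl2, Entpd1 and Ebi3 had lower means in deleted cells, the bright Nt5e probe set overlapped between the groups, Il12a lay near the floor on all arrays, and Tgfb1 was read differently by its probe sets. Of the 13 probe sets 5 were lower by at least 1 on the log2 scale (2-fold) with no overlap between the groups, against 2% of all 45037 probe sets other than controls. A further 1 was higher by as much without overlap, against 2.76%. The median difference over the 13 was -0.33, beside -0.03 over all probe sets. Counting any size of difference, 8 of 13 were lower without overlap and 1 was higher, but over all probe sets the shares were 40.7% and 8.7%, so that 8 of 13 says little. Of those 8, 3 differed by less than 1, namely Il12a, Nt5e 1459023_at and Entpd1 1450939_at.

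Differences were tested with limma over the 16281 probe sets above the filter, with Benjamini-Hochberg adjustment over all of them. Of the 13 member probe sets 8 were tested, from 6 genes. At an adjusted p of 0.05, 0 members passed, as did 0% of all probe sets tested, and the lowest adjusted p of any probe set was 0.115. At an unadjusted p of 0.05, 4 of the 8 passed, against 1507 probe sets or 9.26% of those tested. Il10 and Entpd1 1453586_at reached the filter only through their wild-type arrays. Neither the share among the 8 nor the intervals and p-values of these probe sets are therefore read as support. With 2 arrays in each group an exact permutation test of a single value cannot go below 0.333. RNA was taken from bulk cells, so fewer cells of a type and less RNA per cell cannot be told apart.

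**Figure D1:**
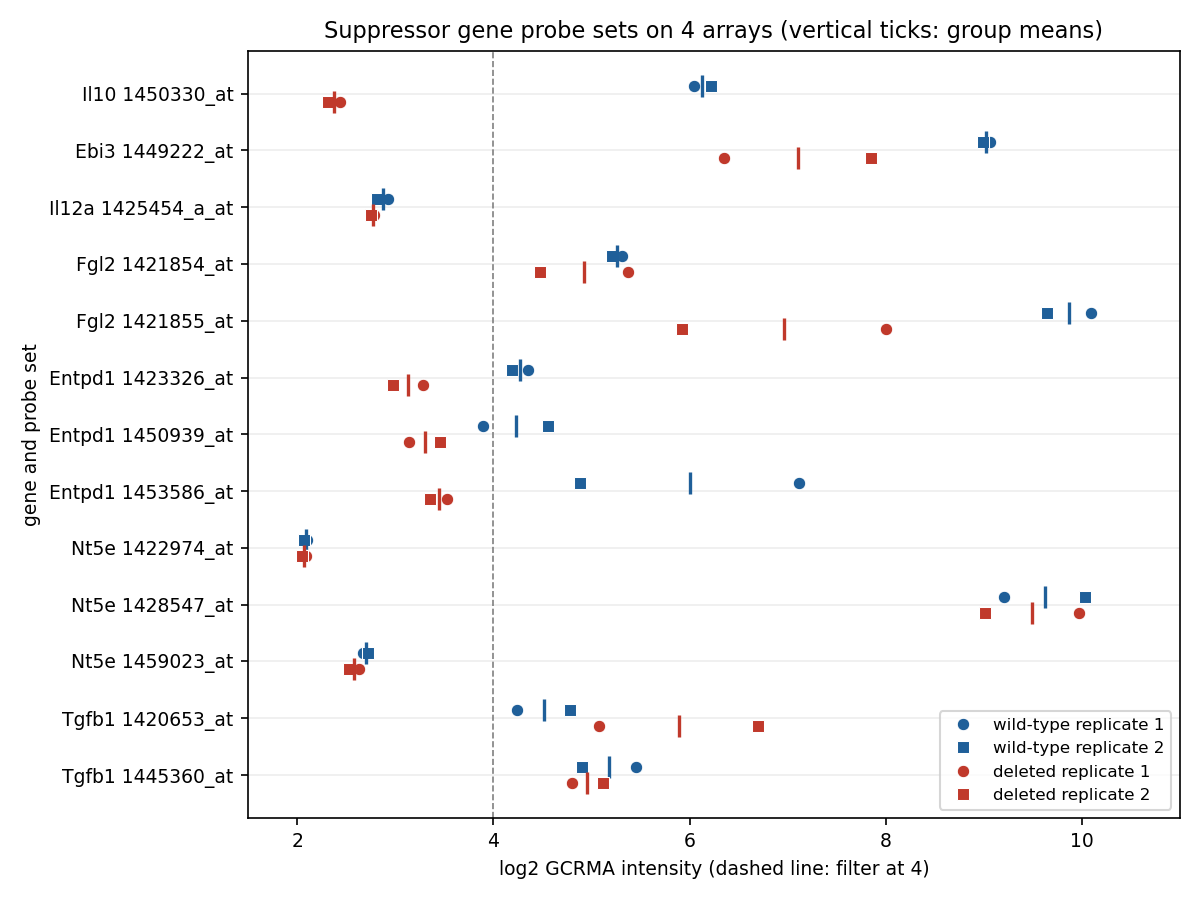
Log2 GCRMA intensity of the 13 probe sets (rows) on the 4 arrays, with blue for wild-type and red for deleted arrays, circles for replicate 1, squares for replicate 2 and vertical ticks for group means. Il10 lies below the filter line at 4 in both deleted arrays, Nt5e 1428547_at overlaps between the groups, and the pairs of arrays lie far apart for Fgl2 1421855_at, Ebi3 and Tgfb1 1420653_at in deleted cells and for Entpd1 1453586_at in wild-type cells.

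Among the cytokines, Il10 differed most. Its only probe set, 1450330_at, read 5.43 and 4.96 in the deleted arrays and 65.9 and 74.5 in the wild-type arrays. Both deleted arrays lay near the floor of the values and both wild-type arrays well above it, with a gap of 3.60 on the log2 scale between the nearest arrays. The group means were 5.19 ± 0.33 against 70.2 ± 6.08 (intensity, SD, n = 2 each). On the log2 scale Il10 was lower by 3.76 (SE 0.29, 95% interval -4.51 to -3.01, adjusted p = 0.115 in limma), which leaves 7.40% of the wild-type signal. With each array centred on its 75th percentile the adjusted p was 0.0481 in limma, so the call depends on the scaling, and over all alternatives it ranged from 0.0481 to 0.772. With values below log2 4 raised to 4 the difference was 2.13 in size, since the deleted level is set by the floor. Il10 reached the filter only through its wild-type arrays, so none of its p-values is read as support.

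Ebi3, the chain that IL-35 shares with interleukin-27, was bright in wild-type cells and unevenly lower in deleted cells. Probe set 1449222_at read 81.9 and 230.7 in the deleted arrays against 534.1 and 510.0 in the wild-type arrays. The wild-type pair nearly coincided, while the deleted arrays differed 2.82-fold from each other and both stayed below the wild-type pair. The log2 means were 7.10 ± 1.06 and 9.03 ± 0.05 (SD, n = 2 each). Ebi3 was lower by 1.92 (SE 0.57, 95% interval -3.40 to -0.45, adjusted p = 0.427 in limma), with 26.3% of the wild-type signal left. Without deleted replicate 1 it was lower by 1.18.

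Il12a, the partner chain of Ebi3 in IL-35 and of Il12b in interleukin-12, was not seen above the floor. Probe set 1425454_a_at read 6.90 and 6.73 in deleted and 7.61 and 7.04 in wild-type arrays. These values lie below the filter on every array and were not tested, so no level of the second IL-35 chain can be given for either group.

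Tgfb1, which encodes a cytokine that is stored in latent form and has to be released, was read by probe sets that disagreed. Probe set 1420653_at read 33.8 and 104.2 in deleted cells and 18.9 and 27.6 in wild-type cells. The groups did not overlap, though the deleted arrays differed 3.08-fold from each other. It was higher by 1.38 on the log2 scale (SE 0.63, 95% interval -0.24 to 2.99, adjusted p = 0.603 in limma), and by 0.57 without deleted replicate 2, where the groups stayed apart. Probe set 1445360_at read 27.9 and 34.7 against 43.8 and 30.0. Here the groups overlapped, with a difference of -0.22 (95% interval -1.18 to 0.73, adjusted p = 0.892 in limma). Both probe sets were dim, and no source used here says which part of the transcript each reads.

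Fgl2 was likewise read by probe sets of very different brightness. The brighter, 1421855_at, read 255.9 and 60.7 in deleted cells and 1097 and 798.6 in wild-type cells. Every deleted value was below every wild-type value, with 4.22-fold between the deleted arrays. On the log2 scale it was lower by 2.91 (SE 0.74, 95% interval -4.82 to -0.998, adjusted p = 0.361 in limma), with 13.3% of the wild-type signal left. The higher deleted value belongs to replicate 1, the array with the highest summed myeloid marker signal, whose part in this value was not tested. Without that array the difference was 3.95 in size, and without deleted replicate 2 it was 1.87.

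The dimmer Fgl2 probe set, 1421854_at, read 41.5 and 22.2 in deleted cells and 39.6 and 36.9 in wild-type cells. Its groups overlapped and its difference was -0.33 (95% interval -1.43 to 0.76, adjusted p = 0.848 in limma). On both Fgl2 probe sets deleted replicate 1 read above deleted replicate 2.

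**Figure D2:**
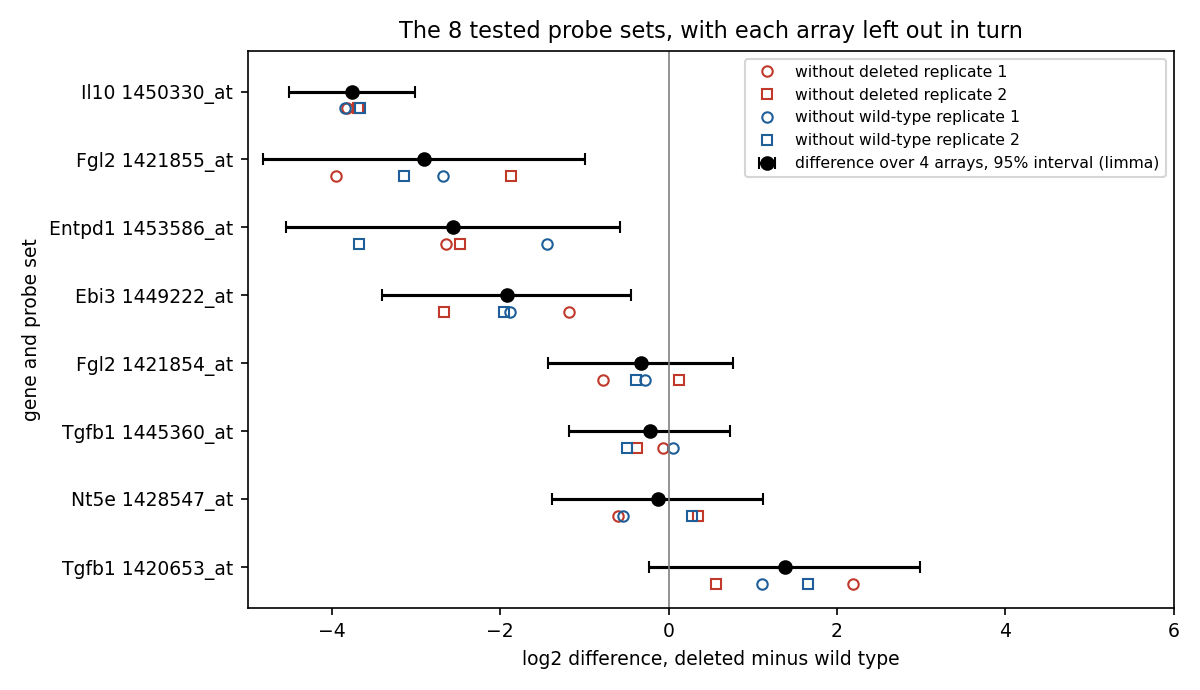
Log2 difference, deleted minus wild type, of the 8 tested probe sets (rows), with black points and bars for the value over 4 arrays and its 95% limma interval and open symbols for the value without each array in turn. The intervals of Il10, Fgl2 1421855_at, Entpd1 1453586_at and Ebi3 stay below 0, while no adjusted p is below 0.115. Il10 and Entpd1 1453586_at reached the filter only through their wild-type arrays, so their intervals are not read as support.

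Of the adenosine-producing enzymes, Entpd1 was lower in deleted cells on each of its 3 probe sets, and all 3 were dim. Probe set 1453586_at read 11.5 and 10.3 in deleted cells and 138.9 and 29.6 in wild-type cells. The deleted arrays lay near the floor, and the wild-type arrays differed 4.69-fold. It was lower by 2.56 (SE 0.77, 95% interval -4.54 to -0.58, adjusted p = 0.430 in limma), and by 1.45 without wild-type replicate 1.

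The other Entpd1 probe sets were below the filter and not tested. Probe set 1423326_at read 9.72 and 7.87 against 20.4 and 18.2, a difference of -1.14 with no overlap. Probe set 1450939_at read 8.78 and 11.01 against 14.9 and 23.6, a difference of -0.93 with no overlap. With values below log2 4 raised to 4 these became -0.271 and -0.281, because the deleted values lie under that line.

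Nt5e, the next enzyme of the path, was bright in both groups. Probe set 1428547_at read 1005 and 517.4 in deleted and 592.8 and 1048 in wild-type arrays. A high and a low array occurred in each group, so the groups overlapped throughout. The difference was -0.13 (SE 0.49, adjusted p = 0.958 in limma). Its 95% interval of -1.38 to 1.12 reaches from 0.384-fold to 2.18-fold, so the 4 arrays leave a change within those bounds possible. Probe sets 1422974_at and 1459023_at read between 4.14 and 6.58 on all arrays, near the floor, and were not tested.

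**Figure D3:**
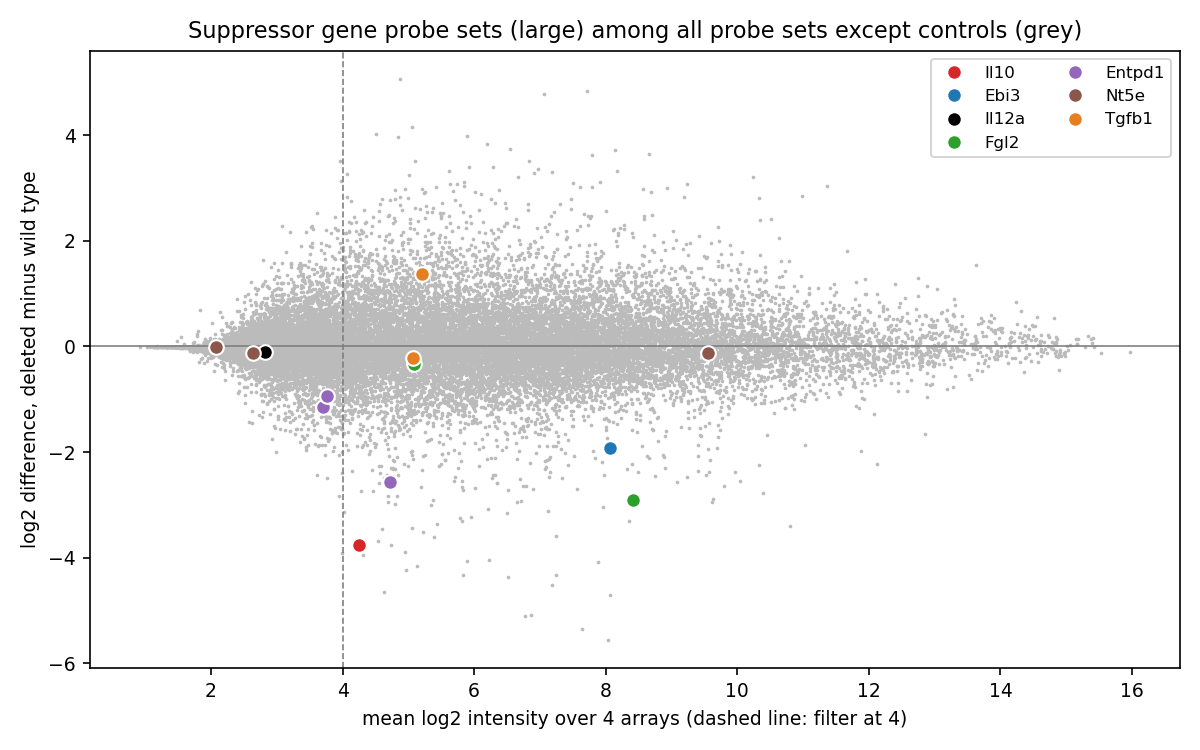
Log2 difference (deleted minus wild type) against mean log2 intensity over the 4 arrays, with every probe set except controls in grey and the 13 member probe sets as large coloured points. Il10, Fgl2 1421855_at, Ebi3 and Entpd1 1453586_at lie below 0, at -3.76, -2.91, -1.92 and -2.56. Nt5e 1428547_at lies near 0, and the probe sets left of the dashed line were not tested.

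The other genes of these pathways were read on the brightest probe set of each gene. Over all 8629 genes above the filter, 4.93% were lower by at least 1 without overlap, 5.57% were higher by as much without overlap, and the median difference was -0.02. In each of the lists below, 0 genes passed an adjusted p of 0.05 in limma over all probe sets.

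Genes that receive or control IL-10 had mostly lower means. Of 19 genes, all above the filter, 5 were lower by at least 1 without overlap and 2 were higher, with a median difference of -0.49. The 2 higher were Creb1 (by 1.49, SE 0.36, adjusted p = 0.347 in limma) and Bhlhe40 (by 1.33, SE 0.41, adjusted p = 0.438 in limma). Crem, a cyclic AMP responsive transcription factor, read 4.97 and 4.005 against 7.11 and 7.19 on the log2 scale (lower by 2.66, SE 0.45, adjusted p = 0.200 in limma, with its other probe set above the filter at -1.46). Il10ra, the ligand-binding chain of the IL-10 receptor, read 4.84 and 3.83 against 6.80 and 6.38 on that scale. It was lower by 2.26 (SE 0.47, adjusted p = 0.296 in limma) on the only 1 of its 3 probe sets above the filter. The gene of the other receptor chain, Il10rb, differed by -0.45 with overlapping groups (adjusted p = 0.802 in limma). Prdm1, which encodes BLIMP-1, a factor needed for IL-10 production by Treg cells, was lower by 2.01 (SE 0.33, adjusted p = 0.184 in limma), with little spread within either group. Its partner in effector Treg cells, Irf4, was lower by 1.66 (SE 0.41, adjusted p = 0.353 in limma).

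Genes that mature or receive TGF-beta had differences of both signs. Of 22 measured 16 were above the filter, and 3 were lower and 5 higher by at least 1 without overlap, with a median of 0.28. Itgb8, the integrin chain that frees latent TGF-beta, read 4.26 and 4.18 against 9.14 and 9.51 on the log2 scale (lower by 5.11, SE 0.36, adjusted p = 0.115 in limma). Furin, the protease that cleaves the precursor, read 5.92 and 7.23 against 4.81 and 5.67 (higher by 1.33, SE 0.60, adjusted p = 0.600 in limma, and by 0.68 without deleted replicate 2). Among receptors, Tgfbr1 was lower by 1.68 (SE 0.51, adjusted p = 0.438 in limma, and by 1.05 without wild-type replicate 2). Tgfbr2 was higher by 1.25 without overlap (SE 0.40, adjusted p = 0.451 in limma). The co-receptor gene Tgfbr3 was higher by 3.52 (SE 0.36, adjusted p = 0.115 in limma) from a wild-type level near the floor. With values below log2 4 raised to 4 it was higher by 2.85. Tgfbr3 reached the filter only through its deleted arrays, so its p-value is not read as support.

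Purine-handling genes outside the members showed few differences of that size. Of 22 measured 15 were above the filter, with 0 lower and 2 higher by at least 1 without overlap and a median of 0.03. Entpd5, an intracellular relative of CD39, was higher by 1.41 (SE 0.39, adjusted p = 0.396 in limma) and by 1.85 on a second probe set above the filter, the opposite sign to Entpd1. P2rx7, the receptor through which extracellular ATP acts on T cells, read 8.14 and 9.28 against 7.76 and 7.24 on the log2 scale. It was higher by 1.21 (SE 0.51, adjusted p = 0.573 in limma), and by 0.64 without deleted replicate 2 or 0.63 on a second probe set above the filter. P2rx4, another ATP-gated channel, differed by -0.49, and Dpp4 (CD26) by 0.47, with its 3 probe sets above the filter ranging from -0.41 to 0.47.

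The IL-12 family list held 4 genes above the filter of 7 measured, and 1 of them, Stat4, the factor that signals for interleukin-12, was higher by at least 1 without overlap (by 1.17, SE 0.38, adjusted p = 0.461 in limma). The 4 had a median of -0.10, and the subunit genes Il12b and Il23a were below the filter. The list of epidermal growth factor ligands and receptors also held shedding genes and Il18r1. Of its 16 measured genes 5 were above the filter, with 1 lower, 0 higher by at least 1 without overlap and a median of 0.18. The ligand genes were all below the filter. Erbb3, a receptor of that family, was lower by 1.51 (SE 0.38, adjusted p = 0.354 in limma), Il18r1, the interleukin-18 receptor chain, was higher by 0.98 (SE 0.20, adjusted p = 0.280 in limma) and the sheddase gene Adam17 was higher by 0.39 (adjusted p = 0.778 in limma), or by 1.82 on a second probe set above the filter. Of 7 measured relatives or partners of Fgl2, only Fcgr2b, an inhibitory Fc receptor that binds FGL2, was above the filter. It differed by 0.43 with overlapping groups.

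**Figure D4:**
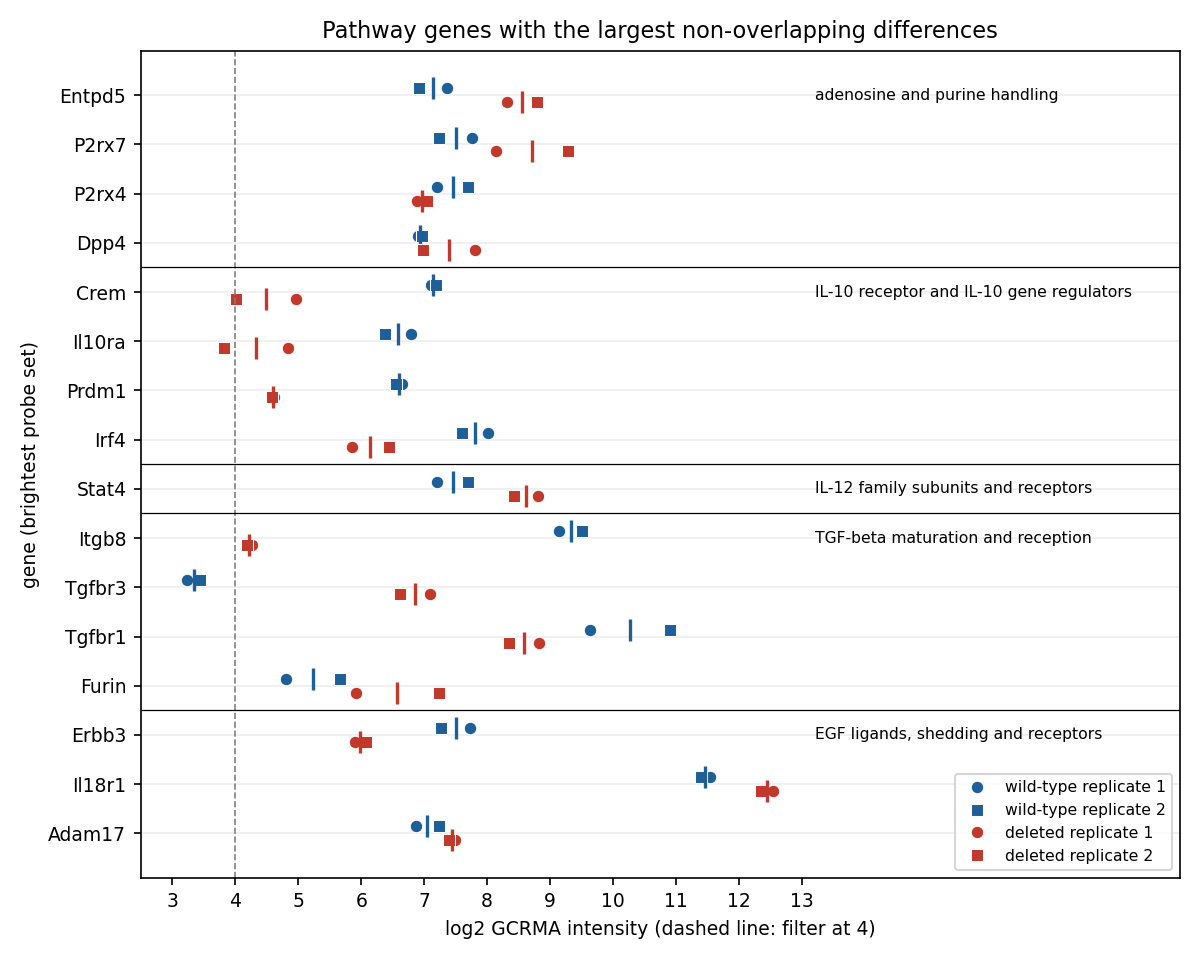
Log2 GCRMA intensity on the 4 arrays for the pathway genes with the largest differences among those whose groups do not overlap, up to 4 for each list, with colours and symbols as in the plot of the 13 probe sets and horizontal lines between lists. Itgb8 and Tgfbr3 are the farthest apart between groups (lower by 5.11 and higher by 3.52). Crem, Il10ra, Prdm1 and Irf4, the 4 genes shown of the IL-10 list, are all lower in the deleted arrays. Creb1 and Bhlhe40 of that list were higher and are not shown.

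Genes with the profile most like each member were found as the smallest Euclidean distance between log2 profiles centred on their own mean over the 4 arrays, among the 8629 genes. For Il10 these were Havcr2 (TIM-3, distance 0.30) and Ctla4 (0.43), both inhibitory receptors. For Ebi3 they were Ikzf2 (Helios, 0.12) and Penk (0.30), each lowest in deleted replicate 1 and close together in wild-type arrays. For Fgl2 they were Prg4 (0.62) and Nucb2 (0.83), each lowest in deleted replicate 2. For Entpd1 they were Akap2 (0.23) and Mpzl1 (0.65), each highest in wild-type replicate 1. Zfp954 (0.09) and Trappc6b (0.10) were nearest to Nt5e, and Pphln1 (0.28) and Runx1 (0.30) to Tgfb1. These distances rest on 4 arrays and describe likeness only.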

How the data were processed

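The authors deposited linear GCRMA intensities (GCRMA 1.1.3, according to the submitters' processing notes). Per the labels, Qiagen RNeasy was used for extraction and Ambion Message Amp II for labelling with biotin. GCRMA subtracts a sequence-dependent background, normalizes arrays to one another and summarises each probe set, so weak probe sets cluster at a floor where differences shrink. No source used here gives its settings. Array minima were 1.88 to 1.90 and array medians 8.38 to 8.94.

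No pseudocount was added before taking log2. Symbols came from the platform annotation: 34958 probe sets had 1 gene symbol, 932 several and 9211 none, and 64 control probe sets were left out. No probe set with several symbols named a member. Probe sets averaging 4 or more on the log2 scale entered a test per probe set with limma 3.58.1 in R 4.3.3 (lmFit, eBayes with trend, residual degrees of freedom 2, prior 2.98), two-sided, with a threshold of 0.05. The procedure was run on simulated data, where it was required only to return the size and sign of known differences. Spreads were shuffled over probe sets there, so that run does not bear on error rates in these data. Genes outside the members were read on the probe set with the highest mean, and up to 4 were named per list, those with the largest difference among genes above the filter whose groups did not overlap. Tgfbr2, Fcgr2b, Il12b, Il23a, Il10rb, Creb1, Bhlhe40 and the marker genes named singly fall outside that rule and were named after their values were seen. The number of arrays limits the precision.

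The members, lists and motifs were chosen with earlier results of these data known. Alternatives covered the filter, the floor, a pseudocount of 16, scaling, the variance trend, a replicate block, 1 probe set per gene and each array left out. Tables and plots were made with Python 3.11.15, pandas 2.3.3 and matplotlib 3.10.9.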

Additional observations from a re-analysis of the deposited data

How the results depend on the processing

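No member passed an adjusted p of 0.05 in limma under any alternative except Il10, with each array centred on its 75th percentile (0.0481). Over all probe sets the count past 0.05 was 0, but 18 with that centring and 20 with a filter of at least 6, which removes Il10. Of 105 values of the 8 tested member probe sets under alternatives, 4 had the opposite sign, all with 1 array left out, from 3 probe sets whose groups overlap. With an array left out, Nt5e 1428547_at ranged from -0.607 to 0.35, Fgl2 1421854_at from -0.784 to 0.12 and Tgfb1 1445360_at from -0.495 to 0.0515; the cause was not tested. The count of member probe sets higher by at least 1 without overlap ranged from 0 (without deleted replicate 2) to 1 with an array left out. The count lower was 5 to 6 with an array left out and 4 with values below log2 4 raised to 4. The filter, the block and the trend do not enter those counts. The labels number the replicates without stating a pairing. The deviations of same-numbered arrays had a weak inverse correlation (-0.243 over tested probe sets). With the replicate block the count past 0.05 was 0, as with the crossed pairing as a block, which was chosen after seeing the data. Values near the floor limit what can be said of Il10 and Entpd1 in deleted cells.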

Other observations

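Some suppressor genes were among the probe sets that varied more within a group. Between the deleted arrays Fgl2 1421855_at was 4.22-fold higher in replicate 1, and 1.07% of tested probe sets had a larger gap in that pair. Ebi3 was the reverse, 2.82-fold higher in deleted replicate 2 (4.67% with a larger gap), as did Tgfb1 1420653_at, 3.08-fold higher there (3.21%). Between the wild-type arrays Entpd1 1453586_at was 4.69-fold higher in replicate 1 (2.11%), whereas Ebi3 differed 1.05-fold. Il10 was close within both groups, at 1.09-fold in deleted and 1.13-fold in wild-type cells. The median gap over tested probe sets was 0.43 on the log2 scale in the deleted pair and 0.45 in the wild-type pair.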
